A study of Mus musculus with 6 samples.

Results

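The synaptogyrins are a family of 4 genes, Syngr1, Syngr2, Syngr3 and Syngr4, taken here by name from the 46078 genes counted in the epithelial fraction of the mouse colon. The family was selected on measured values, since it was chosen by the log2 fold change of Syngr3 between knockout and wild type, the largest rise of all genes, so these differences are given for the family as a description, with no p-value, and the calls counted below support nothing about it. Syngr1, Syngr2 and Syngr3 were found by name in the authors' deposited comparison table, and Syngr4 by its Ensembl identifier in the count table. RNA-seq had been done on 3 wild type (WT) and 3 homozygous Lingo3 knockout (Lingo3-/-) libraries, all from mice aged 2 months kept without treatment, from cells washed off the colon with EDTA. The label of WT replicate 1 adds DTT to this wash, those of the other 5 libraries name EDTA alone, and the protocol text common to all 6 names both agents. The labels give no strain, no design of the deleted allele and no statement that the libraries of a genotype came from separate animals, so errors and p-values cover only how far these samples lie apart, and that spread may be technical.

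Synaptogyrins are small proteins that cross the membrane of transport vesicles several times with both ends in the cytoplasm, and they are distant relatives of synaptophysin. Syngr1 and Syngr3 are known from synaptic vesicles of neurons, where synaptogyrin 3 also binds the dopamine transporter. Syngr2, also called cellugyrin, is the widely expressed member found on small vesicles of cells outside the nervous system, and Syngr4 is the least studied member. Vesicle traffic in the gut epithelium serves mucin release by goblet cells, hormone release by enteroendocrine cells and recycling of membrane proteins in absorptive cells.

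The coding sequences of the members differ along their length, which is shown here because a read assigned to the wrong member would change the values below. Below is the 60-base stretch, lying in a single exon of each gene, in which the 4 coding sequences are most alike by the sum of bases matching Syngr3, 5′ to 3′ on the coding strand, with capitals for bases that differ from Syngr3.
Syngr3: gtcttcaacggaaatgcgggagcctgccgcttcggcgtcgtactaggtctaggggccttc
Syngr1: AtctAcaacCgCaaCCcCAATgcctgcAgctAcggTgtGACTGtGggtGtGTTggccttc
Syngr2: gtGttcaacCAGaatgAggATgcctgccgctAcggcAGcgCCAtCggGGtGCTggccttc
Syngr4: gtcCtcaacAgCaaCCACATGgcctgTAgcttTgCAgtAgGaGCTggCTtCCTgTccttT
On GRCm38 these are chr17:24687603-24687662 on the minus strand for Syngr3, chr15:80110522-80110581 on the plus strand for Syngr1, chr11:117812537-117812596 on the plus strand for Syngr2 and chr7:45888712-45888771 on the minus strand for Syngr4. Even here Syngr1 differed from Syngr3 at 23 bases, Syngr2 at 19 and Syngr4 at 27. Over the aligned coding bases Syngr3 was 66.4% identical to Syngr1, 58.2% to Syngr4 and, with 421 of 648 bases, to a similar degree to Syngr2. The longest run of bases that the longest protein-coding Syngr3 transcript, untranslated parts included, shared with those of the other members was 18, with Syngr2 (ttcagcttcttctccatc). Of the 2041 different words of 31 bases in the annotated Syngr3 transcripts, 0 occurred in a transcript of any other gene on either strand. The same held for Syngr1 (0 of 4776) and Syngr4 (0 of 1026). Syngr2 shared 107 of 1859 words (5.76%) with Gm20708, a gene model that shares 136 bases of its exons on the same strand, and Gm20708 had 0 counts in all 6 libraries. Syngr3 overlapped no other annotated gene, and Syngr1 overlapped the ribosomal protein gene Rpl3 on the opposite strand without sharing an exonic base.

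The libraries held 11868000 to 28029583 counts over genes, and the 3 WT libraries were the deeper ones. Mitochondrial transcripts took 45.3 to 48.4% of the counts in WT and 34.7 to 36.3% in knockout. Epithelial RNA was abundant: the adhesion molecule gene Epcam stood at 740 ± 106 CPM in WT and 919 ± 80.8 CPM in knockout (counts scaled to library size by TMM, the usual CPM; SD, n = 3). RNA of other cells was present too. The summed level of 11 fibroblast and smooth muscle markers was 349 to 1000 CPM in WT and 235 to 473 CPM in knockout. The summed level of 15 T cell markers was 203 to 228 CPM in WT and 68.7 to 122 CPM in knockout. The deleted gene, Lingo3, was counted 3, 3 and 1 times in the WT libraries, against 2, 0 and 1 times in knockout, and at this level it is no check of the genotype labels. Because these are bulk samples, a change in the number of cells of a type cannot be told apart from a change in RNA per cell in any result below.

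Syngr3 (ENSMUSG00000007021) was nearly silent in WT and clearly expressed in knockout. It occupies 24685092 to 24689955 of chromosome 17 (minus strand), with 2071 exonic bases and a coding sequence of 690 bases. Raw counts of WT replicates 1, 2 and 3 were 5, 12 and 12, whereas those of knockout replicates 1, 2 and 3 were 165, 119 and 51. All 3 knockout libraries exceeded all 3 WT libraries in raw counts although they were sequenced less deeply. In CPM these counts were 0.234, 0.452 and 0.520 in WT and 8.50, 6.31 and 4.08 in knockout. The lowest knockout library was 7.84 times the highest WT library, and the WT values were low but above what 3 counts are worth in a WT library, 0.113 to 0.140 CPM. The means were 0.402 ± 0.150 CPM in WT and 6.30 ± 2.21 CPM in knockout (SD, n = 3), which is a ratio of 15.7, and the edgeR log2 fold change was 3.95 ± 0.35 (SE). Within each genotype Syngr3 varied by about the same factor, 2.23 between the highest and lowest WT library and 2.08 in knockout. Its coefficient of variation was 37.2% in WT and 35.1% in knockout.

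Syngr2 (ENSMUSG00000048277), on chromosome 11 from 117809668 to 117814283 on the plus strand, was by far the most abundant member and was also higher in knockout. Its CPM were 63.8, 63.5 and 54.3 in WT and 92.4, 83.2 and 102 in knockout (replicates 1, 2 and 3), from at least 1251 counts per library. The groups did not overlap, with means of 60.5 ± 5.44 and 92.6 ± 9.46 CPM (SD, n = 3) and an edgeR log2 fold change of 0.61 ± 0.11 (SE). In fold this was a small change beside that of Syngr3. In reads it was the larger one, since Syngr2 gained about 32.0 CPM and Syngr3 5.89 CPM between the group means.

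Syngr1 and Syngr4 did not share the rise. Syngr1 (ENSMUSG00000022415), on chromosome 15 from 80091334 to 80119501 on the plus strand, stood at 1.82, 2.04 and 1.95 CPM in WT and 1.70, 1.33 and 1.68 CPM in knockout. Every knockout library was below every WT library, but by little, and the edgeR log2 fold change was -0.31 ± 0.25 (SE). Syngr4 (ENSMUSG00000040231), at 45885222 to 45896714 of chromosome 7 (minus strand), had 6, 12 and 10 counts in WT and 5, 6 and 9 counts in knockout. This put it at 0.389 ± 0.0943 and 0.432 ± 0.251 CPM (SD, n = 3), with overlapping groups, and it did not pass the filter on low counts. A change in Syngr4 was not detectable at this depth.

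**Figure D1:**
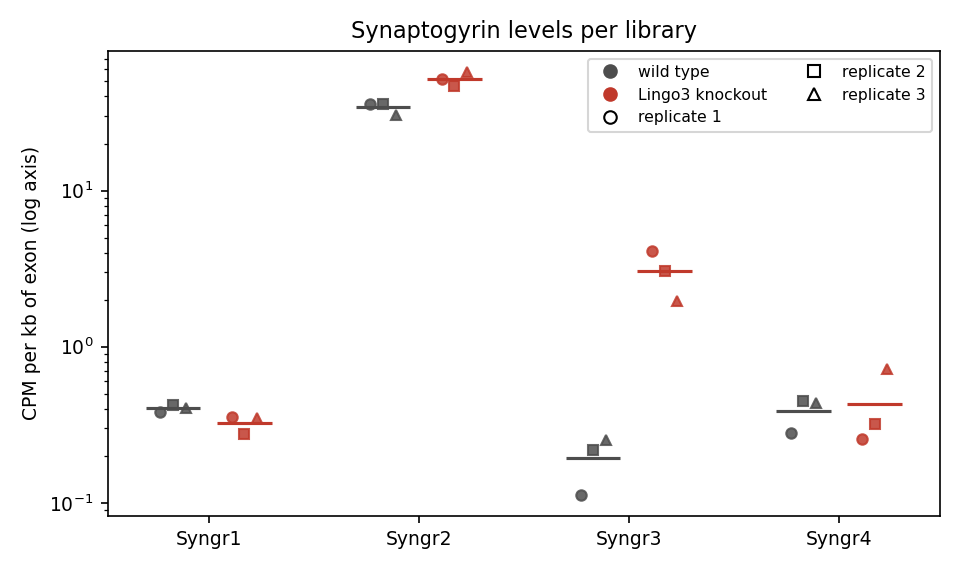
Level of each synaptogyrin in each library, as CPM per kb of exon on a log axis, with grey symbols for WT, red symbols for Lingo3 knockout, a symbol shape per replicate number and a line at each group mean (n = 3). Syngr3 moves from 0.113 to 0.251 CPM per kb in WT up to 1.97 to 4.10 in knockout, Syngr2 stays far above the other members in all 6 libraries, and the Syngr4 groups overlap.

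Of the 4 members 3 passed the filter on low counts, and the fit over all genes (edgeR's quasi-likelihood test) counted 2 of these, Syngr2 and Syngr3, among its higher calls, which made 9.43% of the 16856 genes tested. The CPM of the groups did not overlap for Syngr1, Syngr2 and Syngr3, with knockout higher for Syngr2 and Syngr3 and lower for Syngr1, beside 35.6% of all genes tested (19.7% with knockout higher and 16.0% with knockout lower). Nothing is read from these shares, since the same comparison chose the family. By its selection no gene tested had a larger log2 fold change than Syngr3, whereas 780 had a larger one than Syngr2, and the median of all genes tested was -0.03. Among genes with a mean of at least 1 CPM, the next largest included the predicted gene Gm47283 (2.60 ± 0.79), Pla2g4c, a phospholipase A2 gene (2.56 ± 0.99), the pancreatic lipase relative Pnliprp2 (2.45 ± 0.62) and, below them, the intelectin gene Itln1 (1.89 ± 0.22; all log2 fold change ± SE). Of these 4 Itln1 passed the threshold and the others did not (edgeR adjusted p = 0.00147 for Itln1 and 0.0907, 0.166 and 0.0549 for the others in this order), and the Pla2g4c groups overlapped. In the authors' deposited table Syngr3 also ranked first, with a log2 fold change of 3.98, and Syngr2 had 0.63 and Syngr1 -0.30. That table comes from the same libraries.

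**Figure D2:**
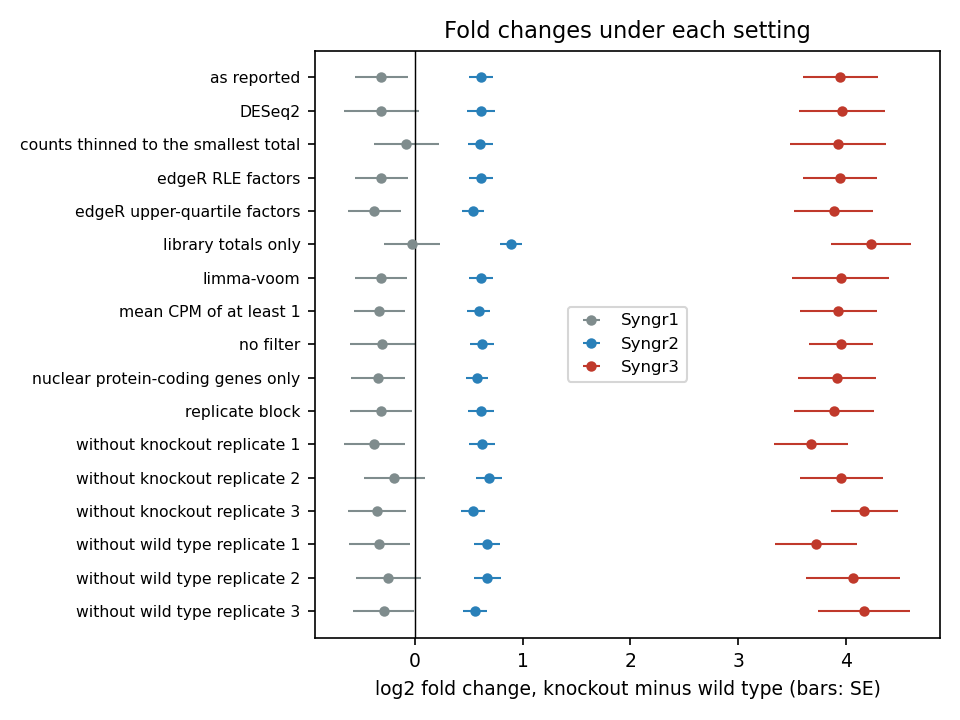
Log2 fold change of Syngr1, Syngr2 and Syngr3, knockout minus WT, with its SE, under the reported fit and each of 16 other settings or left-out libraries. Syngr3 lies between 3.68 and 4.23, Syngr2 between 0.54 and 0.89, and Syngr1 between -0.38 and -0.03.

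Per length, the order of the family changed between the genotypes. In WT, Syngr2 had a mean of 34.1 ± 3.06 CPM per kb of exon (SD, n = 3), followed by Syngr1 at 0.403 ± 0.0222, Syngr4 at 0.389 ± 0.0942 and Syngr3 at 0.194 ± 0.0723. Syngr1 and Syngr4 did not differ beyond their spread, while each WT library had less Syngr3 than Syngr1 or Syngr4 per kb. In knockout, Syngr2 stood at 52.1 ± 5.33 CPM per kb (SD, n = 3), Syngr3 at 3.04 ± 1.07, Syngr4 at 0.431 ± 0.251 and Syngr1 at 0.326 ± 0.0437. Syngr3 thus went from the last to the second place, and the last places, Syngr4 and Syngr1, again overlapped. The Syngr3 to Syngr1 ratio was 0.298 to 0.619 in the WT libraries and 5.64 to 11.6 in the knockout libraries.

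Even after its rise Syngr3 was a minor part of the family's transcripts. Of the summed CPM per kb of the 4 genes, Syngr2 made 97.2% ± 0.680 in WT and 93.2% ± 1.68 in knockout (SD, n = 3). Syngr3 made 0.308, 0.593 and 0.794% in WT and 7.23, 6.04 and 3.25% in knockout (replicates 1, 2 and 3). Set among all genes tested, Syngr3 exceeded 3.99% of genes by mean CPM per kb in WT and 53.8% in knockout. These places only describe the values that chose Syngr3. It also passed the filter on low counts through its knockout libraries, which places it low among the genes tested in WT. Syngr2 exceeded 95.8% of genes in WT and 97.2% in knockout, and Syngr1 exceeded 11.4% in WT. The summed family level was 35.1 ± 2.97 CPM per kb in WT and 55.9 ± 5.07 in knockout (SD, n = 3), most of it Syngr2.

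Genes on both sides of Syngr3 were measured in the same libraries. Within 250 kb on either side, 39 counted genes were annotated and 28 were tested, of which 2 were higher and 2 lower in knockout, beside 9.43% and 5.97% of all genes tested. With library totals in place of TMM, which moved the median of all genes to 0.26, 10 were higher and 2 lower. That scaling called 5415 of the 16856 genes tested higher and 420 lower. With TMM, the log2 fold changes of the 28 neighbours ran from -1.90 to 0.84 with a median of -0.11. The nearest neighbours lie about 3 kb away. Zfp598, a ubiquitin ligase gene for stalled ribosomes 3.08 kb away, stood at 50.0 ± 5.44 and 47.7 ± 1.64 CPM (SD, n = 3; edgeR adjusted p = 0.682). Gfer, the gene of a mitochondrial sulfhydryl oxidase 3.23 kb upstream of Syngr3 on the same strand, rose by 0.66 ± 0.15 on the log2 scale (SE), with 9.94 ± 1.73 CPM in WT and 15.7 ± 1.99 CPM in knockout (SD, n = 3; edgeR adjusted p = 0.0137, or 0.0668 without knockout replicate 3). The ribosomal protein gene Rps2 rose by 0.84 ± 0.11 and the small nucleolar RNA gene Snora78 fell by 1.46 on the log2 scale (edgeR adjusted p = 0.00147 and 0.0257). Snora78 lies inside Rps2 on the opposite strand and the strand setting of the counting is not given in the sources used here, so their reads may not have been told apart. Rps2 also has many near-identical copies in the genome, so its count is uncertain. The call of Snora78 was lost without WT replicate 1, knockout replicate 2 or knockout replicate 3 (highest edgeR adjusted p = 0.120). Caskin1, the gene of a synaptic scaffold protein 176 kb away, fell by 1.90 on the log2 scale, with 1.26 ± 0.157 CPM in WT and 0.332 ± 0.0742 CPM in knockout (SD, n = 3; edgeR adjusted p = 0.00588). DESeq2 gave no adjusted p for Caskin1, so that fit neither passed nor failed it.

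**Figure D3:**
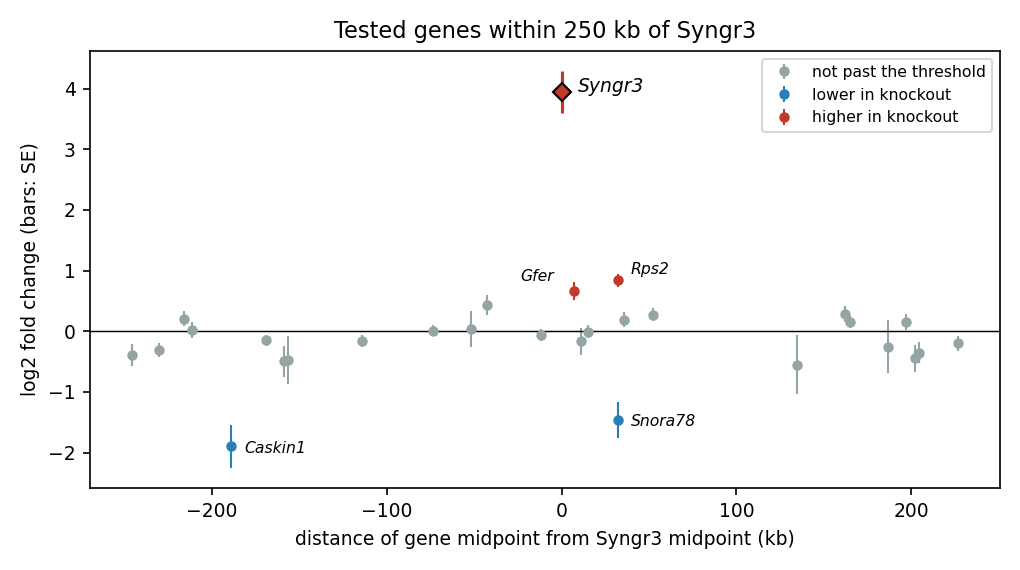
Log2 fold change, knockout minus WT, with its SE, of the 28 tested genes within 250 kb of Syngr3 against the distance of each gene's midpoint from that of Syngr3, with red for higher, blue for lower and grey for genes not past the threshold. The neighbours lie between -1.90 and 0.84, and Syngr3, chosen for its rise, is the diamond at 3.95.

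The wider vesicle machinery held calls in both directions. Of the 75 counted genes in 3 lists of tetraspan vesicle proteins, vesicle membrane proteins and release proteins, 58 were tested. Of these 5 were higher, 2 lower and 51 did not pass, beside 9.43% higher, 5.97% lower and 15.4% called in all among the genes tested. The median log2 fold change was -0.09, beside -0.03 over all genes tested. With library totals 17 were higher and 0 lower, beside 5415 higher and 420 lower of the 16856 genes tested. Over all genes 61.2% of calls were higher, 45.4% with upper-quartile factors and 92.8% with library totals. Without knockout replicate 3 the 3 lists held 3 higher and 1 lower, without knockout replicate 2 they held 0 lower, and without WT replicate 2 or 3 they held 1 lower. The list of tetraspan vesicle genes, which holds synaptophysin-like and Scamp genes, did include genes that rose. Of 6 tested tetraspan vesicle genes 2 rose and 0 fell by edgeR (3 and 1 at an unadjusted p under 0.05, and 0 fell by DESeq2 or limma). The share of all genes at an unadjusted p under 0.05 is not given, so nothing is read from unadjusted counts here or below. Sypl, the synaptophysin-like gene expressed outside neurons, had 79.1, 82.5 and 77.8 CPM in WT and 130, 142 and 145 CPM in knockout, so the groups were well apart (log2 fold change 0.80 ± 0.09 SE; edgeR adjusted p = 0.000798). Scamp1, a carrier membrane protein of the recycling pathway, rose by 0.61 ± 0.12 (edgeR adjusted p = 0.00805). Synaptophysin itself, Syp, the classical partner of synaptogyrins on synaptic vesicles, was scarce, at 0.607 ± 0.232 CPM in WT and 0.647 ± 0.172 CPM in knockout (SD, n = 3; edgeR adjusted p = 0.858).

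Among 15 tested vesicle membrane proteins and transporters, 0 rose by edgeR (1 at an unadjusted p under 0.05, 0 by DESeq2 or limma, 3 with library totals) and 1 fell, the SNARE gene Vamp4 of endosomal traffic (log2 fold change -0.40 ± 0.12 SE; edgeR adjusted p = 0.0408). Its call was lost without WT replicate 1 or 3 or any 1 of the 3 knockout replicates (highest edgeR adjusted p = 0.138). It did not pass with DESeq2 or library totals either. Among 37 tested release and recycling proteins, 3 rose and 1 fell. The exocytosis GTPase genes Rab3d and Rab27b rose by 0.72 ± 0.11 and 0.48 ± 0.12, and Cadps2, which primes dense-core vesicles, by 0.46 ± 0.10 (log2 ± SE; edgeR adjusted p = 0.00216, 0.0210 and 0.0118). Rab27b lost its call without WT replicate 2 or 3 or knockout replicate 3 (highest edgeR adjusted p = 0.0927), and Cadps2 without knockout replicate 3 (0.0568). The neuronal and endocrine SNARE gene Snap25 fell, from 6.83, 6.98 and 5.21 CPM in WT to 3.71, 2.55 and 4.88 CPM in knockout (log2 fold change -0.80 ± 0.23 SE, edgeR adjusted p = 0.0384). The nearest libraries, 5.21 in WT and 4.88 in knockout, were close, and the call was lost without WT replicate 1 or 2 or knockout replicate 1 or 2 (highest edgeR adjusted p = 0.130), and with thinned counts or library totals. The synapsin gene Syn1 stood at 1.03 ± 0.181 and 0.910 ± 0.252 CPM (SD, n = 3; edgeR adjusted p = 0.746).

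The known binding partner of synaptogyrin 3 in dopamine neurons was hardly detected here. The transporter gene Slc6a3 had a mean of 0.0145 CPM in WT and 0.0443 CPM in knockout, below the floor of 3 counts in a library, and the dopamine receptor genes Drd1 and Drd2 had 0 counts in all libraries.

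Markers of enteric neurons and glia did not pass the test, which 15.4% of all genes tested passed. Of 15 enteric neuron markers 4 were tested, and 0 passed in edgeR in either direction, 0 at an unadjusted p under 0.05 and 0 by DESeq2, by limma or with no filter on low counts. Their summed level was 5.20 to 8.23 CPM in WT and 4.77 to 8.29 CPM in knockout. The defining neuronal genes were nearly absent: Tubb3, a neuronal tubulin, had 0, 1 and 0 counts in WT and 3, 0 and 1 in knockout, and the RNA-binding protein gene Elavl4 had 1, 2 and 1 in WT and 2, 0 and 0 in knockout. Of 9 enteric glia markers 4 were tested and 0 passed in edgeR, 0 at an unadjusted p under 0.05 and 0 by DESeq2 or limma. Nearly all of the glial sum was Erbb3, a receptor gene that epithelial cells also express.

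Enteroendocrine cells, the hormone-secreting cells of the gut epithelium, share much of the neuronal vesicle machinery. Of 24 tested enteroendocrine markers 1 was higher and 4 were lower, beside 9.43% and 5.97% of all genes tested. Their median log2 fold change was -0.36, beside -0.03 over all genes tested. The summed level overlapped, at 479 to 628 CPM in WT and 286 to 531 CPM in knockout. With library totals 2 were higher and 1 lower, beside 5415 higher and 420 lower of the 16856 genes tested. With thinned counts 2 were lower. The granule protein gene Chga did not pass (162 ± 21.3 and 111 ± 44.3 CPM; SD, n = 3; edgeR adjusted p = 0.309). The lineage factor Neurod1 (log2 fold change -0.85), its partner in endocrine fate Rfx6 (-0.90), the neurotensin gene Nts (-1.15) and the proprotein convertase inhibitor gene Pcsk1n (-1.22) fell, and the convertase gene Pcsk1 rose by 0.70. The call of Pcsk1n was lost without any 1 of the 6 libraries (highest edgeR adjusted p = 0.184), that of Neurod1 without any 1 library other than knockout replicate 3 (0.0979), that of Rfx6 without any 1 other than knockout replicate 1 (0.161) and that of Nts without knockout replicate 3 (0.0594). Of 12 tested tuft cell markers 2 rose, Trpm5 by 0.42 and Gfi1b by 1.49, and 0 fell, beside the same shares of all genes. Gfi1b lost its call without any 1 of the 6 libraries (highest edgeR adjusted p = 0.123), and Trpm5 without any 1 other than knockout replicate 3 (0.150). With DESeq2 neither Pcsk1n, Gfi1b nor Trpm5 had an adjusted p under 0.05, which for a scarce gene can mean that none was given. With library totals neither Neurod1, Rfx6 nor Pcsk1n passed. Library totals gave 5 higher tuft cell markers, beside the same 5415 of all genes, and upper-quartile factors or thinned counts gave 1.

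**Figure D4:**
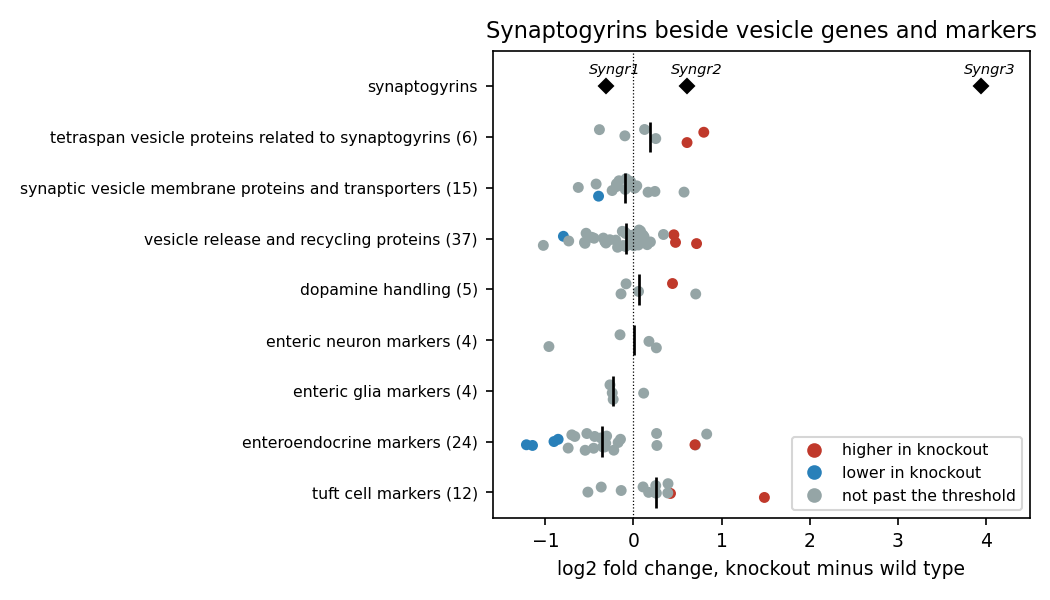
Log2 fold change, knockout minus WT, of the 3 tested synaptogyrins (diamonds) and of the tested genes of the vesicle, dopamine, neuron, glia, enteroendocrine and tuft cell lists (circles, number tested in brackets, line at the median), with red for higher, blue for lower and grey for genes not past the threshold. Syngr3, chosen for its rise, is at 3.95, and Syngr2 at 0.61 lies within the range of the listed genes.

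Markers of other epithelial and immune cells moved in the same libraries as Syngr3 and Syngr2. The list counts below by adjusted p stand beside 9.43% higher and 5.97% lower among all genes tested. No such share is given for the unadjusted counts, and nothing is read from them. Of 12 tested crypt stem cell markers 6 rose and 0 fell (8 and 0 at an unadjusted p under 0.05), with a summed level of 347 to 385 CPM in WT and 580 to 697 CPM in knockout. They were Ascl2 (log2 fold change 1.78), Slc12a2 (1.13), Sox9 (0.77), Ephb2 (0.62), Smoc2 (0.61) and Lgr5 (0.56). Of 12 goblet cell markers 5 rose and 0 fell (8 and 0 unadjusted), and the sum was 14100 to 17100 CPM in WT and 19500 to 21600 CPM in knockout. They were Klk1 (1.33), Clca1 (1.13), Atoh1 (0.92), Spdef (0.70) and Spink4 (0.62). Of 12 pan-epithelial markers Cdx1 (0.63) and Krt18 (0.49) rose, and of 12 absorptive colonocyte markers Guca2b rose (0.71) and Car4 fell (-0.68). Of 15 T cell markers 13 fell and 0 rose (15 and 0 unadjusted), most of all Cd8b1 (-2.40), Cd4 (-2.08) and Lat (-1.42), and the defining marker Cd3e fell from 13.8 ± 1.54 to 6.91 ± 1.91 CPM (SD, n = 3). Of 10 B cell and plasma cell markers Pax5 (-2.16), Mzb1 (-2.07), Cd79b (-1.67), Ighm (-1.53) and Igkc (-0.75) fell, while the plasma cell genes Igha (0.34) and Jchain (0.25), named after their values were seen, did not pass. Of 9 tested myeloid markers Il1b (-3.60), Itgax (-0.72) and Ptprc (-0.86), a gene of all leukocytes, fell. The Itgax groups overlapped, with 5.89 CPM in WT replicate 1 and 5.92 CPM in knockout replicate 3. Adgre1 (1.11), Itgam (0.71) and Lyz2 (0.70) had log2 fold changes above 0 and did not pass, and were also named after their values were seen. The myeloid sum overlapped between the groups, at 220 to 246 CPM in WT and 109 to 297 CPM in knockout. Of 11 fibroblast and smooth muscle markers Eln (-2.22) and Des (-1.32) fell, 9 did not pass, and 1 had a log2 fold change above 0. The sum of the 11 overlapped between the groups. Library totals called 5415 of the 16856 genes tested higher and 420 lower, and the shares above do not apply to that scaling. With library totals 9 stem cell, 9 goblet cell, 8 pan-epithelial and 2 absorptive markers were higher and 0 of each lower. With the same scaling 1 B cell and plasma cell marker was higher and 4 lower, and 13 T cell, 2 myeloid and 1 fibroblast and smooth muscle markers were lower. The calls of Ascl2, Slc12a2, Ephb2, Klk1, Atoh1, Spdef, Cdx1, Guca2b, Cd8b1, Cd4, Cd3e, Pax5, Il1b, Ptprc and Eln held without any 1 library, and each of the others named was lost without at least 1 (highest edgeR adjusted p = 0.200, for Lgr5). Under the other settings that kept each gene, Lgr5 passed in 5 of 10, Des in 5 of 8, and Car4 and Itgax in 8 of 10. Ighm and Igkc passed in 7 of 9, Lat in 9 of 10 and Mzb1 in 7 of 8, with no adjusted p for Mzb1 from DESeq2. Each other called gene named here passed in all. The part of these shifts, and of the lower mitochondrial share, in the values of Syngr2 and Syngr3 was not tested.

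The genes whose pattern was most like that of Syngr3 were ranked over the libraries. By Pearson r of log2 CPM over the 6 libraries, among 12770 genes with an established symbol and a mean of at least 1 CPM, the likest were Ephb2, a crypt receptor for ephrins (r = 0.998), the hydrolase gene Abhd14b (0.995), the sorting receptor gene Sorcs2 (0.994), the transcriptional corepressor gene Tle1 (0.994) and the methyltransferase gene Smyd5 (0.993). An r above 0.9 was reached by 677 genes, since r over 2 separate groups mostly records the difference between them. Ephb2 had 37.7, 41.9 and 40.6 CPM in WT replicates 1, 2 and 3 against 64.7, 61.6 and 57.7 CPM in the same order of knockout replicates. Like Syngr3 it was highest in replicate 1 and lowest in replicate 3 of the knockout, and lowest in replicate 1 of the WT. In WT it was highest in replicate 2, and Syngr3 in replicate 3. Since Ephb2 was picked by its r over these libraries, a similar order only describes that choice. The log2 fold changes of these 5 genes were 0.56 to 0.89. With a prior count of 0.5 in place of 2, 3 of the 5 were again among the likest. Within the family, r with Syngr3 was 0.866 for Syngr2, -0.74 for Syngr1 and -0.0309 for Syngr4. In knockout, Syngr2 was highest in replicate 3, where Syngr3 was lowest.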

How the data were processed

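Reads had been processed with Trimmomatic 0.39, STAR, HTSeq and DESeq2 on GRCm38, per the submitters' processing notes. The deposited count table holds raw counts per Ensembl gene, and its HTSeq summary lines, 53.6 to 60.1% of reads, were left out. The authors' deposited comparison gives DESeq2 log2 fold changes, a score (the Wald statistic), p-values and a normalized signal per library, and was used only descriptively. Counts were fitted with edgeR 4.0.16 (R 4.3.3; genotype only, TMM, filterByExpr with a minimum count of 10 and total of 15, robust quasi-likelihood test, Benjamini-Hochberg adjustment over 16856 genes, threshold 0.05). The SE is the log2 fold change divided by the root of F. Log2 CPM used a prior count of 2. Alternatives used limma 3.58.1, DESeq2 1.42.0, other scalings and filters, thinned counts and left-out libraries. Positions, exons and sequences came from the GENCODE annotation of GRCm38. Gene models with no row in the count table, such as Scamp4, were not analysed here. The fit was tested on simulated data.

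Members and lists were chosen with earlier results of these data known. Genes named are the 4 members, the nearest tested gene on each side of Syngr3 and those within 250 kb past the threshold, the 5 likest (established symbols) and the 5 largest rises at a mean CPM of at least 1, the defining markers, and list members past the threshold (the 3 largest each way in lists with more than 6). Some genes that this rule names are not reported here. Of 247 list entries 246 matched a counted gene. Floors cover counting error only.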

Additional observations from a re-analysis of the deposited data

How the results depend on the processing

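Under 16 alternatives (6 of them leaving out a library) the log2 fold changes of Syngr1, Syngr2 and Syngr3 kept their direction. The family was chosen on the rise of Syngr3 in these same libraries, so this describes the fits and is no independent support. Without single libraries the log2 fold change was 3.68 to 4.17 for Syngr3, 0.54 to 0.69 for Syngr2 and -0.38 to -0.19 for Syngr1. Library totals in place of TMM raised the median of all genes to 0.26 and gave 4.23, 0.89 and -0.03. Syngr4 had a value only where the filter let it pass, with 0.05 ± 0.54 (SE) with no filter. The replicate number as a replicate block gave 3.89, 0.61 and -0.31, and 0 vesicle genes lower. Same-numbered libraries did not deviate together (r of deviations -0.0102, -0.117 and -0.103), so the numbers were not taken to pair them.

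Of all genes, 5415 were higher and 420 lower with library totals, 1675 lower with no filter, and 711 to 1677 higher and 413 to 1070 lower without single libraries. Of the 3 vesicle lists, 17 were higher and 0 lower with library totals, 1 lower with thinned counts and 4 lower with no filter, and 3 to 6 were higher and 0 to 3 lower without single libraries. Near Syngr3, 10 genes were higher with library totals, and 1 was lower with DESeq2, with a mean CPM of at least 1 and with nuclear protein-coding genes only. With DESeq2 Caskin1 had no adjusted p and was counted as not called. A window of 100 kb held 1 lower, and 1000 kb held 8 higher and 4 lower. Without single libraries 1 to 2 were higher and 1 to 2 lower. Of 521 other values, for single lists and levels, 89 moved, the levels of Syngr1 and Syngr2 per kb of longest transcript among them. The cause of these shifts was not tested. Depth limits Syngr4 and the WT level of Syngr3, which rests on 5 to 12 counts a library.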
